A study of Mus musculus with 6 samples.

Results

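The T cell receptor gene loci are the stretches of the mouse genome from which T cells assemble the alpha, beta, gamma and delta chains of their antigen receptor. The islands described here are all those of 4 deposited mSin3A island lists that overlap chromosome 14, 53050000 to 54850000 (Tcra, with Tcrd inside it), chromosome 6, 40841000 to 41510000 (Tcrb), or chromosome 13, 19265000 to 19450000 (Tcrg). All positions are on build mm9. The lists held 88 such islands out of 54058. By library these were 21 islands in wild type (WT) condition 1, 13 in WT condition 2, 30 in Tcf1/Lef1-deficient condition 1 and 24 in deficient condition 2. The members were chosen by position, but they were proposed with results of these data known, and the difference at chromosome 14, 54780601, was among those results.

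mSin3A is the scaffold of a co-repressor complex that carries histone deacetylases. Its chromatin was immunoprecipitated and sequenced (ChIP-seq) from splenic T cells sorted as CD8+ with high TCRbeta. The cells came from control mice, labelled wild type, or from mice labelled Tcf1-/-Lef1-/-, in which CD4-Cre had deleted both transcription factors. CD4-Cre is a recombinase transgene driven by Cd4 regulatory sequence, so deletion takes place in developing T cells of the thymus and is not specific to the CD8 lineage. There is 1 ChIP library for each genotype in each of 2 conditions. How the conditions differ, and the number and age of the animals, are not stated in the labels. An input library of each genotype was not analysed here. With 1 library for each genotype and condition, no difference below has a replicate check and no test was made. The intervals cover counting error only.

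The receptor genes are built by V(D)J recombination, which joins a variable (V), sometimes a diversity (D), and a joining (J) segment ahead of a constant (C) region. At Tcra, the V segments lie upstream, the delta segments follow, and a long array of J alpha segments leads to the single C alpha region, with the alpha enhancer beyond it. Tcra rearrangement begins at the 5′ end of the J alpha array and can repeat with more 3′ J alpha segments, each time deleting the DNA in between. Mature alpha beta T cells therefore carry different remaining lengths of the array, and the copy number of DNA along it is not uniform. LEF1 and TCF1 are HMG-box proteins long known as factors of the alpha enhancer. Tcrg is normally not expressed in alpha beta T cells.

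The annotation at hand (GENCODE M21) is on another build, GRCm38, so it was used for names and order only. It lists 128 V alpha segments, of which 73 bear the d or n in their names that marks the duplicated V alpha clusters. It also lists 6 V delta, 2 D delta, 2 J delta and 1 C delta gene. Among the V delta genes, Trdv5 lies after C delta. Next come 60 J alpha segments in falling number, Trac (C alpha) and the neighbouring gene Dad1. On mm9 the J alpha segments span about 54770000 to 54836000 and C alpha lies at about 54840000. Inside an island, no single segment was placed. No mm9 sequence was at hand, so none is shown. Reads from the near-identical V alpha copies cannot be assigned with certainty, and the labels do not say how multiply aligned reads were treated.

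The 88 islands merged, where they shared or touched a base, into 46 regions, 34 at Tcra, 8 at Tcrb and 4 at Tcrg. Of these, 5 were called in all 4 libraries, 10.9% of the member regions, against 24.0% of the 23510 regions of the whole series. With only the 50% of islands with the most reads kept, 2 of 5 member regions were in all libraries, against 36.0% of the series. A single library called 26 of them, or 56.5%, against 48.1% over the series. In both deficient libraries and neither WT library there were 4 (8.7%, background 8.98%), and in both WT libraries and neither deficient library 3 (6.52%, background 2.91%). The deficient-only share of the loci lay near its background. The WT-only share was higher, but it rested on 3 regions.

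Islands were unevenly placed within the loci. They were sparse over the V segments and most crowded over the 3′ J alpha segments and C alpha. Upstream of J alpha, islands covered 1.85% and 0.581% of bases in WT and 2.14% and 2.34% in deficient cells, in conditions 1 and 2. This was below the 2.46% to 2.62% of the autosomes in each library, taking each autosome up to the last island of any list. Since reads of the V alpha copies cannot be assigned with certainty, the lower called share does not show lower mSin3A occupancy there. Over the 3′ 33 kb of the 66 kb J alpha span the called share was 83.0% and 84.2% in WT and 77.6% and 66.7% in deficient cells. From the end of that span to the end of the window it was 100% in both WT libraries, and 81.4% and 94.3% in deficient cells.

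**Figure D1:**
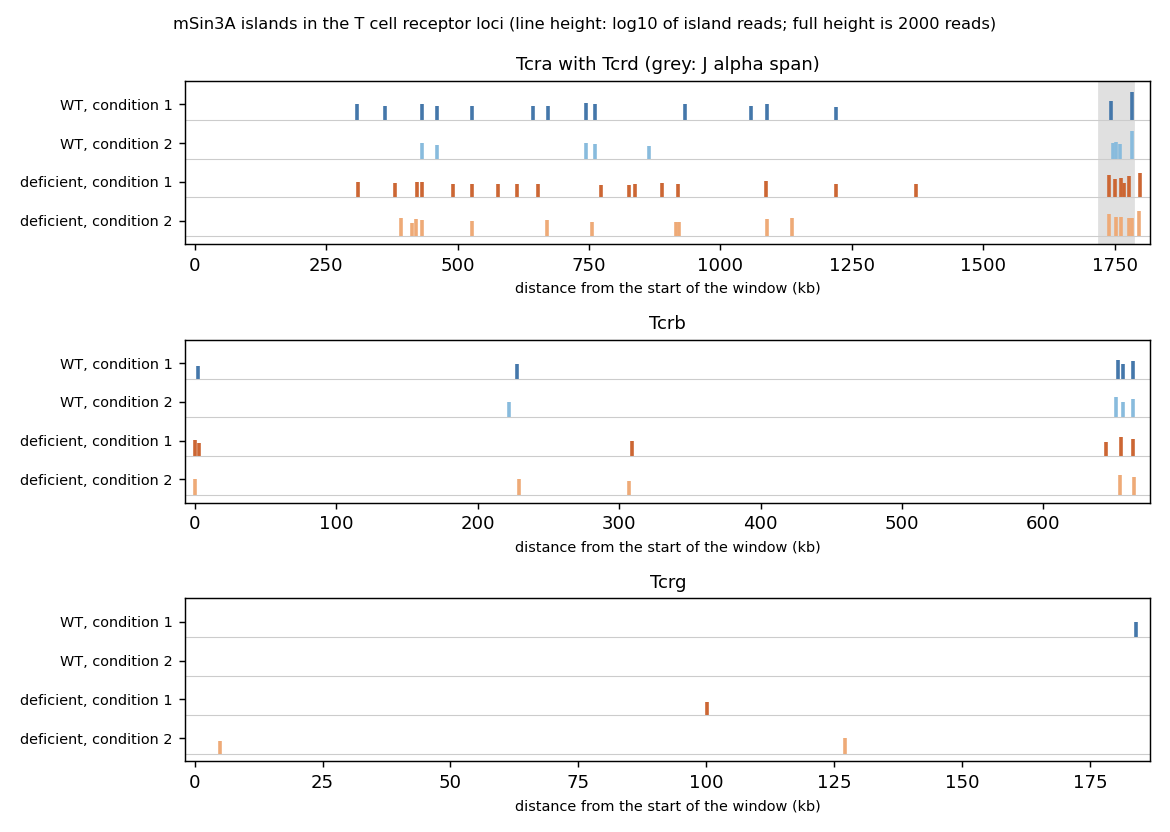
Position of every member island in the 3 loci, one row per library, with distance from the start of each window in kb on the x axis and line height proportional to the log10 of the reads in the island. Islands are scattered over the first part of Tcra and crowd into the J alpha span (grey) and the C alpha side in all 4 libraries, while Tcrg holds 1, 0, 1 and 2 islands.

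The J alpha to C alpha block gave the most reads of the 3 loci and the clearest difference between the genotypes. Its summed island reads were close in number, but their placing along the array was not the same. In both WT libraries most reads lay in 1 broad island over the 3′ J alpha segments and C alpha. In both deficient libraries that stretch was called as 4 islands with fewer reads in sum, some of them 801 bp apart. More reads and more called length lay over the 5′ J alpha segments there. Each feature was seen in both conditions.

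The whole block, merged regions 54780601 to 54797199, 54798201 to 54804799 and 54808201 to 54856599, held 1634 reads in WT condition 1 (exact Poisson 95% interval 1556 to 1715). It held 1718 reads (1638 to 1801) in WT condition 2. Deficient cells had 1561 (1485 to 1640) in condition 1 and 1569 (1492 to 1649) in condition 2. The islands were called in each list separately, so these sums move with how much was called. Called length in the block was 55198 and 53396 bp in WT and 64194 and 61594 bp in deficient cells. Reads per kb of it were 29.6 and 32.2 for WT against 24.3 and 25.5 for deficient cells. The similar sums thus came from longer and less dense called stretches in deficient cells.

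Over the 5′ J alpha segments, the first pair of these regions together had 133 reads in WT condition 1 and 143 in WT condition 2. In deficient cells the sums were 458 and 486 reads. Called length was 7199 and 6598 bp in WT against 22198 and 21998 bp in deficient cells. Reads per kb of called length were 18.5 and 21.7 for WT and 20.6 and 22.1 for deficient cells. The larger island read sums of the deficient libraries thus went with more called length, at a similar density. No fold is given, because 1 of the regions is not listed in WT condition 1 and its reads there are unknown. The 2 libraries of each genotype differed less in island reads and called length than the genotypes did.

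As a share of the block, which does not depend on scaling between libraries, the 5′ regions took 8.14% (exact binomial 95% interval 6.86 to 9.57) in WT condition 1. In WT condition 2 the share was 8.32% (7.06 to 9.73). It was 29.3% (27.1 to 31.7) in deficient condition 1 and 31.0% (28.7 to 33.3) in deficient condition 2. Reads outside islands are not in the lists, so these shares are of island reads and not of all reads aligned to the array. The division into 5′ and 3′ regions was made after the islands were seen, at a stretch of 3401 bp from 54804800 to 54808200 that no library called.

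**Figure D2:**
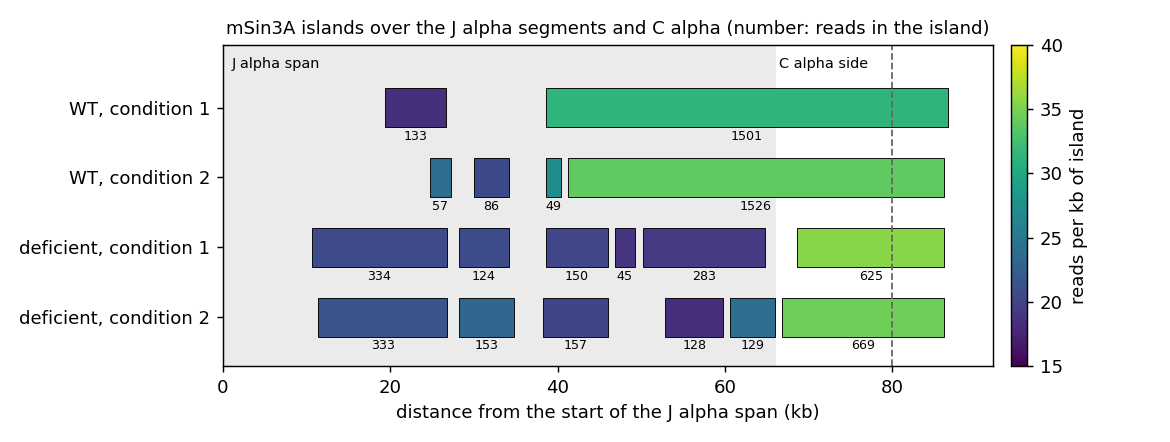
mSin3A islands over the J alpha span (grey) and the C alpha side, one row per library, with distance from the start of the span in kb on the x axis, colour for reads per kb and the reads of each island printed under it. WT has 1 long island of 1501 or 1526 reads, and deficient cells have several shorter ones and wider islands at the 5′ end, with 334 and 333 reads in the first of them. The dashed line marks the end of the Tcra window.

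The more 5′ of these regions, 54780601 to 54797199, was called in all 4 libraries with 133 and 57 reads in the WT libraries against 334 and 333 in the deficient ones. Both deficient values lay above both WT values. To compare libraries, ratios were divided by the median ratio over the 5637 regions called in all 4 libraries, which was -0.061 in condition 1 and -0.085 in condition 2 on the log2 scale. So centred, the ratio was 2.62-fold (2.14 to 3.23) in condition 1 and 6.20-fold (4.67 to 8.36) in condition 2. The WT libraries also differed from each other here, with 133 reads in condition 1 and 57 in condition 2. Over the shared regions the log2 ratio, deficient over WT, had a standard deviation of 0.50 in condition 1 and 0.52 in condition 2. Between conditions it was 0.51 in WT and 0.44 in deficient cells. The intervals cover counting error only and leave out this spread. The region is 1 of 18 whose deficient reads were at least 2-fold higher in each condition, 0.319% of the 5637 shared regions. None of the members was among the 23 (0.408%) that were at least 2-fold lower in each. No other shared region had ratios as high as this one in both conditions at once. That rank rests on the condition 2 ratio, whose WT island held 57 reads. In condition 1 other shared regions had higher ratios, among them some that were also at least 2-fold higher in condition 2. The difference lay in called length, which was 7199 and 2399 bp in WT against 16199 and 15399 bp in deficient cells. Reads per kb of called length were close, at 18.5 and 23.8 for WT against 20.6 and 21.6 for deficient cells. The folds thus compare islands of unequal length. Reads outside the shorter WT islands are not listed, so the folds are not those of all reads in the region.

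The adjoining region, 54798201 to 54804799, was not listed in WT condition 1 and held 86 reads in WT condition 2. Deficient cells had 124 and 153 reads there, the higher values. In condition 2 the deficient to WT ratio was 1.89 (1.44 to 2.49), and in condition 1 no ratio can be given. Regions called in both deficient and 1 WT library made up 8.41% of the series. The WT libraries thus had similar sums over the 5′ regions from differently placed islands, 1 island in condition 1 and 2 in condition 2. The deficient libraries had 2 islands each. The first began at 54780601 and 54781401 in conditions 1 and 2, and the second at 54798201 in both.

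Windows of 200 bp, the grid on which all islands start, show the same contrast. Of the 165 windows in the 5′ 33 kb of the J alpha span, 107 were called in any library. Among these, 49 were called in both deficient libraries and in neither WT library, or 45.8%, against 6.28% of all called windows of the series. None of them was called in both WT libraries and in neither deficient library. In the 3′ 33 kb, 148 of 165 windows were called in any library, and 89 of these, or 60.1%, were called in all 4, against 16.4% over the series. There, 9 windows were WT-only (6.08%, background 3.9%) and 0 were deficient-only. Neighbouring windows of an island are not independent, so these shares describe position and are not tests.

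**Figure D3:**
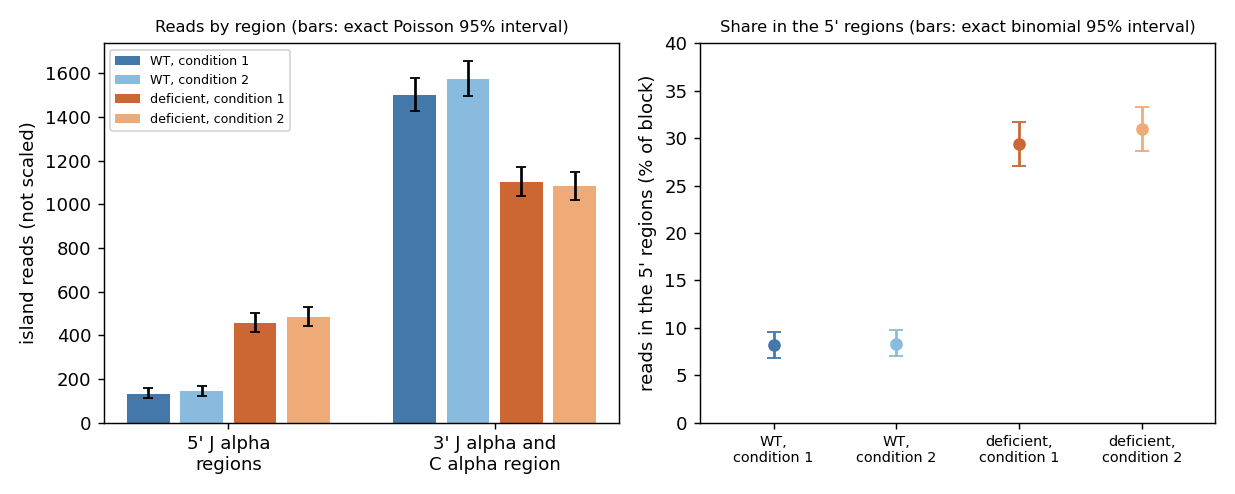
Left, island reads in the 5′ J alpha regions and in the 3′ J alpha and C alpha region for each of the 4 libraries, with exact Poisson 95% intervals. Right, the 5′ regions' share of the block's reads in percent, with exact binomial 95% intervals. WT libraries sit at 8.14% and 8.32% and deficient libraries at 29.3% and 31.0%.

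Over the 3′ J alpha segments and C alpha, the region 54808201 to 54856599 held 1501 and 1575 reads in the WT libraries against 1103 and 1083 in the deficient ones. Both WT libraries lay above both deficient libraries. WT was 1.30-fold (1.21 to 1.41) higher in condition 1 and 1.37-fold (1.27 to 1.48) in condition 2. Between conditions the centred ratio was 0.970 (0.903 to 1.04) in WT and 0.931 (0.856 to 1.01) in deficient cells. Differences of this size were not rare in the series, since 243 of the 5637 shared regions, or 4.31%, had ratios as low or lower in both conditions. Here length and density were both lower in deficient cells. Called length was 47999 and 46798 bp in WT against 41996 and 39596 bp, and reads per kb were 31.3 and 33.7 against 26.3 and 27.4.

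The form of the islands differed as well as their reads. In WT condition 1 the region was 1 island of 47999 bp with 1501 reads, the 7th widest and 14th richest of its list. In WT condition 2 an island of 44999 bp with 1526 reads, the 8th widest and 14th richest, stood beside one of 1799 bp with 49 reads. Deficient condition 1 had islands of 150, 45, 283 and 625 reads from 5′ to 3′, and deficient condition 2 had islands of 157, 128, 129 and 669 reads. Gaps of 801 bp, the smallest between islands in the lists, lay within the region in WT condition 2 and in both deficient libraries. The widest gap there was 3801 bp in deficient condition 1 and 6801 bp in deficient condition 2. The number of islands thus rests in part on the shortest gaps. The widest deficient island, at 17599 and 19399 bp, ranked 123rd and 138th in width. A region with more islands in each deficient list than in each WT list is found in 3.49% of shared regions. Among the 36 shared regions of at least 40 kb called length in both WT lists, a limit chosen after the values were seen, 25.0% were divided in this way.

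The islands of deficient cells also show how density varied along this stretch. Over the 3′ J alpha segments they had 18.8 to 20.3 reads per kb in condition 1 and 18.3 to 23.9 in condition 2. The last island, which begins at 54838601 or 54836801 and covers the position of C alpha, had 35.5 and 34.5 reads per kb. That is above the median island of those lists, 27.2 and 28.1 reads per kb, while the J alpha islands are below it. The single broad island of the WT libraries, at 31.3 and 33.9 reads per kb, runs over both parts, and its reads cannot be divided between them. Whether WT and deficient cells differed at C alpha itself is therefore not known from these lists. In all 4 libraries the last island ended at 54856199 or 54856599, beyond the window.

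The called share of the J alpha span showed where the lists diverged. In its 5′ 33 kb islands covered 21.8% and 16.4% of bases in WT and 63.6% and 61.2% in deficient cells. In the 3′ 33 kb the deficient libraries had the lower called share, by a smaller margin. DNA copy number along the rearranged locus was not measured in these data, and the input libraries were not analysed. Copy number and mSin3A occupancy therefore cannot be told apart at the J alpha segments or upstream of them.

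**Figure D4:**
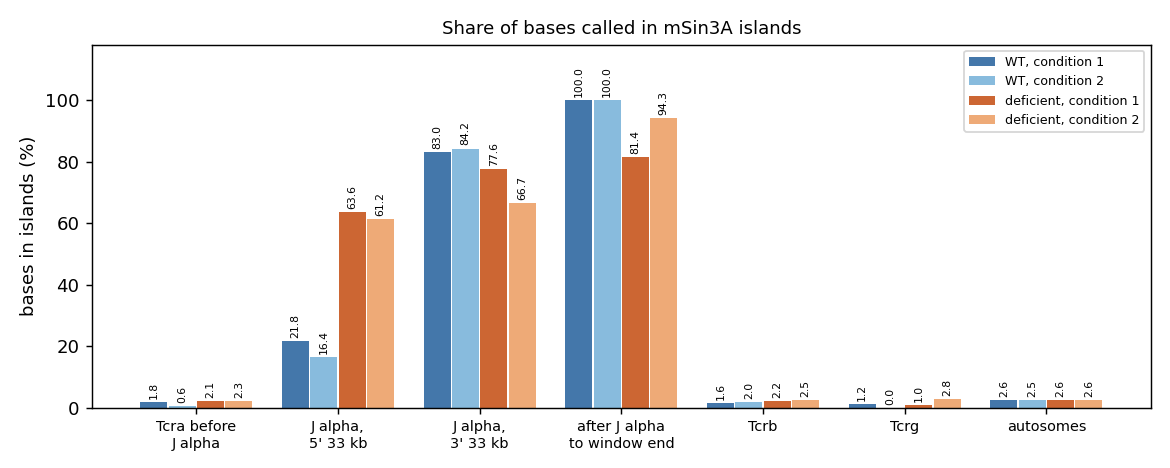
Percent of bases in mSin3A islands for parts of the loci and for the autosomes, with 1 bar for each library and its value above it. The genotypes part most in the 5′ 33 kb of the J alpha span, at 21.8% and 16.4% in WT against 63.6% and 61.2% in deficient cells.

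Upstream of the J alpha span, over the V alpha and delta segments, the islands were small and rarely shared. There were 13 and 5 islands in WT and 17 and 11 in deficient cells, with 25 to 112 reads each. They made 31 regions, of which 20 (64.5%) were called in 1 library only, above the 48.1% of the series. Called in all 4 libraries was 1 region (3.23%, background 24.0%). Summed island reads were 648 and 238 for WT against 709 and 754 for deficient cells. Called length was 31787 and 9995 bp in WT and 36783 and 40189 bp in deficient cells, and reads per kb were 20.4 and 23.8 against 19.3 and 18.8. WT condition 2 had fewer island reads and less called length than the other 3 libraries. The lists hold different regions, so no fold is given.

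The region shared by all was 53481401 to 53484199. Its 59 and 64 WT reads stood beside 57 and 66 deficient reads. No group stood apart, and the ratios were 1.01 (0.688 to 1.48) and 1.09 (0.764 to 1.57). Its start and end were identical in all 4 lists, which holds for 0.106% of shared regions, or 6 regions.

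Called in both WT libraries and neither deficient library were 3 regions of the V alpha part. The first, 53511001 to 53512599, had 41 reads in condition 1 and 40 in condition 2. For 53792001 to 53795799 the reads were 80 and 61, and for 53809001 to 53812799 they were 62 and 42. The deficient-only regions of this part were 53467201 to 53474199, at 63 and 103 reads, and 53967801 to 53972399, at 32 and 47. A region absent from a list has an unknown number of reads there. By reads, the islands of these 5 regions lay between the 2.80th and the 44.6th percentile of their lists.

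In both deficient libraries and WT condition 1, islands were listed at 53576201 to 53578599, with 41 WT reads against 33 and 49 deficient reads, and at 54135001 to 54141199, with 59 against 83 and 84 reads. In condition 1 alone, both genotypes had an island at 53357001 to 53361999, with 66 WT and 50 deficient reads, and at 54268801 to 54270399, with 30 and 37 reads. Over the 3 loci 3 of 46 regions were called by both genotypes in condition 1 alone, against 440 of 23510 in the series. This count rests on few and small islands, and the condition 1 list of each genotype held more islands than its condition 2 list. At 53719201 to 53722799 the calls crossed, with 38 reads in WT condition 1 and 69 in deficient condition 2, a form found in 1.05% of all regions. Among the regions of a single library the richest was 54183401 to 54189799, with 112 reads in deficient condition 2. The 20 regions of a single library in Tcra held 25 to 112 reads, with a median of 37.

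At Tcrb, the annotation orders the V segments first, with trypsinogen genes among them, then a first D, J and C group (Trbd1, Trbj1 segments, Trbc1), a second group (Trbd2, Trbj2 segments, Trbc2) and Trbv31. The D, J and C groups thus lie at the 3′ end, and it was there that the regions shared by all libraries were found. Nearly all of the V part was without islands. Called bases made up 1.61% and 2.00% of the Tcrb window in WT and 2.15% and 2.54% in deficient cells, below the autosomes of the same library. Summed island reads were 351 and 424 for WT against 455 and 472 for deficient cells. Called length was 10795 and 13396 bp in WT and 14395 and 16996 bp in deficient cells. Per kb of island, deficient cells had 29.6 and 26.2 reads and WT 32.5 and 31.7. The deficient sums include 2 regions that neither WT list holds, so no fold is given.

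The wider of the shared Tcrb regions, 41488201 to 41498399, had 188 and 258 WT reads against 157 and 197 deficient reads. The groups overlapped, since deficient condition 2 lay above WT condition 1. The deficient to WT ratio was 0.871 (0.701 to 1.08) in condition 1 and 0.810 (0.670 to 0.979) in condition 2. Here the WT lists had 2 islands and the deficient lists 1, the opposite of the 3′ J alpha region. The first WT island ended at 41495799 in both conditions, and the second began at 41496801 in condition 1 and 41496601 in condition 2. The split thus rests on short gaps, and the gap in condition 2 is the smallest between islands in the lists, 801 bp. This form, 2 islands in both WT lists and 1 in both deficient lists, was found in 0.532% of shared regions. More islands in each WT list than in each deficient list, whatever their number, were found in 0.71%.

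The narrower region, 41502801 to 41506399, had 91 and 113 WT reads against 99 and 105 deficient reads. Both deficient values lay between those of WT, and the ratios were 1.14 (0.845 to 1.53) and 0.986 (0.749 to 1.30). It was among the denser islands of 2 lists, with 56.5 reads per kb in WT condition 2 (96.2nd percentile of the list) and 49.5 in deficient condition 1 (92.4th percentile). In the other lists it was wider and had 28.4 reads per kb in WT condition 1 and 35.0 in deficient condition 2. Density is reads divided by width, and the reads were similar, so the densities differed mainly through the called width. The denser islands came from both genotypes.

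**Figure D5:**
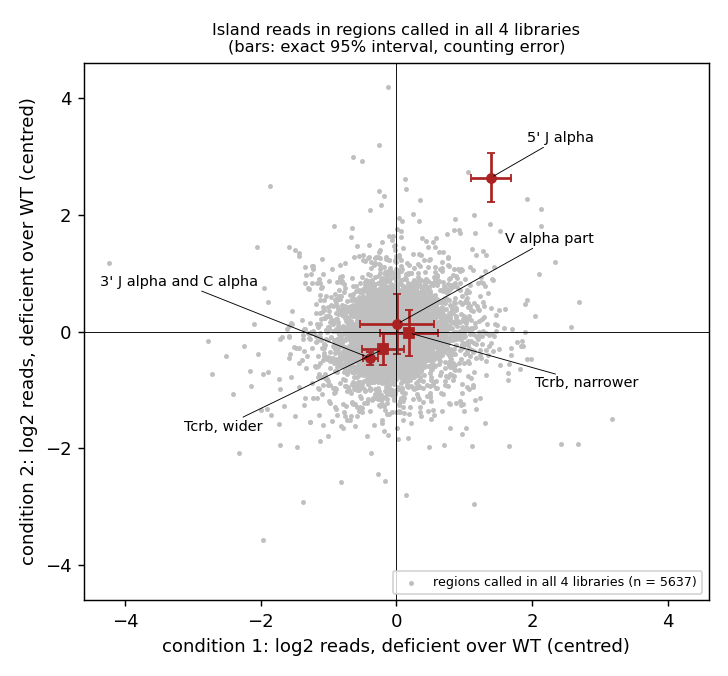
Centred log2 ratio of island reads, deficient over WT, in condition 1 (x axis) and condition 2 (y axis) for the 5637 regions called in all 4 libraries (grey), with the 5 member regions in red and exact 95% intervals for counting error. The 5′ J alpha region stands at the upper right (1.39 and 2.63), the 3′ J alpha and C alpha region lies at -0.38 and -0.46, and the other members lie between -0.30 and 0.18.

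The remaining Tcrb regions were small. At the 5′ edge of the window, 40840001 to 40842399 was called in deficient cells only, with 70 and 66 reads. It begins before the window, and its reads are counted in full in the Tcrb sums. Near it, 40843401 to 40844599 was called in condition 1 only, with 24 WT and 33 deficient reads. Deficient cells alone had 41147201 to 41151799, with 51 and 39 reads. At 41067801 to 41071799 the calls crossed, with 48 reads in WT condition 1 and 65 in deficient condition 2. Called once were 41062401 to 41064399, with 53 reads in WT condition 2, and 41484001 to 41485999, with 45 reads in deficient condition 1. The Tcrb count of deficient-only regions was 2 of 8 (25.0%, background 8.98%). This share rests on few regions and includes the region that begins before the window.

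Tcrg, the shortest window at 185 kb, held the fewest islands. All 4 of its regions were called in 1 library only, against 48.1% of regions in the series, a share that rests on few regions. The annotation lists 7 V, 4 J and 4 C segments there, with Stard3nl as the next gene. WT condition 1 had 59 reads at 19447801 to 19450399, an island that ran past the end of the window, and WT condition 2 had no island. Deficient condition 1 had 30 reads at 19364201 to 19365999. Deficient condition 2 had 30 reads at 19269601 to 19270399 and 63 reads at 19390001 to 19394399, the richest of the locus. The islands lay at 4 different places. The called share of the window, 1.19% and 0% in WT and 0.972% and 2.81% in deficient cells, followed no genotype. Only the share in deficient condition 2 lay above that of the autosomes in the same library, 2.62%.

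The neighbourhood differed between the loci. In the 500 kb below Tcra islands covered 7.12% to 8.92% of bases over the 4 libraries, and in the 500 kb above it 11.1% to 16.6%, so that the V alpha part, at 0.581% to 2.34%, lay between more densely called stretches. On the sides of Tcrb the called share was 0.440% to 2.28% below and 0% to 0.760% above. Around Tcrg it was 0% to 0.799% below and 0% to 0.999% above. Within each library, Tcrb and Tcrg had a called share at least as high as on either side, except that deficient condition 1 had 2.15% in Tcrb and 2.28% below it. In WT condition 2, Tcrg and both its sides were at 0%.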

How the data were processed

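The authors deposited 1 list of islands for each ChIP library, with positions and a last column of unscaled whole numbers. These were taken as read counts per island, judging by the layout and the values, because the deposited files have no header. FastQC, Bowtie2 2.2.5, SICER 1.1 and build mm9 are named in the submitters' processing notes. The notes and labels name no SICER settings and no use of the inputs. The lists held 13397 and 11151 islands in WT (1857866 and 1792952 reads) and 15954 and 13556 in deficient cells (1901826 and 1917097 reads). Total depth is unknown.

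The windows came with the question, and the members and gene lists were chosen with earlier results of these data known. Starts were made 1-based, islands sharing or touching a base were merged, and read ratios got Clopper-Pearson intervals and read sums exact Poisson intervals, both at 95%. Every region called in 2 or more libraries was named, as was the richest region of a single library in each locus. Gene lists, markers and motifs were not used, since no mm9 annotation or genome was at hand. Functions were run on simulated data, where 2000 of 2000 regions had their pattern recovered. The simulated islands of a region always overlapped and lay far from other regions, so islands split by gaps were not tried. Python 3.11.15, numpy 2.4.6, pandas 2.3.3, scipy 1.17.1 and matplotlib 3.10.9 were used.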

Additional observations from a re-analysis of the deposited data

Results flagged for a closer look

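At 3 places the calls or the ratios pointed in opposite directions in the 2 conditions, and the difference between conditions was not tested. The Tcra region 53719201 to 53722799 was called only in WT in condition 1 (38 reads) and only in deficient cells in condition 2 (69 reads). At Tcrb, 41067801 to 41071799 did the same with 48 and 65 reads. Over the series 1.05% of regions had this form. Reads in the lists without an island at these places are unknown. The Tcrb region 41502801 to 41506399 had a log2 ratio of deficient to WT of 0.18 in condition 1 and -0.021 in condition 2. Both intervals hold 0, so no genotype difference was shown there.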

How the results depend on the processing

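Of 51 alternative values, 28 stayed within the main value's counting interval or within 1.5 times a count or length, and 23 did not. In 8 the sign changed, 4 of them in the Tcra read ratio of condition 1, whose main interval holds 0. Ratios of summed reads follow what each list called. Log2 read ratios of Tcra, 0.054 and 0.33 in conditions 1 and 2, became -0.0076 and 0.25 without scaling, -0.041 and 0.15 by total island reads, -0.22 and -0.44 per kb, -0.22 and 0.20 with lists of equal length, and 1.14 and 2.03 for islands wholly inside the window, which leaves out the broad C alpha islands. Those of Tcrb, 0.44 and 0.24, became -0.14 and -0.27 per kb and 0.19 and 0.023 for islands wholly inside. The called length ratio of Tcra in condition 1 went from 0.24 to -0.11 with lists of equal length. The upper 50% of each list left 5 member regions. Of these 1 was deficient-only, 0 were WT-only and 2 were in all libraries, against 7.94%, 2.14% and 36.0% of the series. Lists of equal length left 22, with 2 (9.09%) deficient-only against 7.14%. With a reciprocal overlap of 50%, 3 of 21 member islands of WT condition 1 (14.3%) were met in every other list, against 19.5% of all its islands. The 5′ share of the J alpha and C alpha block, whose alternatives were chosen after seeing the data, was 13.0% and 12.4% in WT and 34.6% and 35.7% in deficient cells by called length. In the upper 50% it was 0% in WT condition 2. Apart from the islands left out, the cause of these shifts was not tested. For Tcrg, 5 values could not be computed, because a deposited list had no island there or an alternative setting left a list without any. Leaving out a library was not possible with 1 library a group. Ratios were taken within each condition, and a test with condition as a block was not made, because the labels do not give the conditions as replicates. Island lists hold no reads below the caller's threshold, so a missing island does not show that mSin3A was absent.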
